A study of Bos taurus with 10 samples.

Results

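CG methylation in the frontal cortex of cattle was compared with that in 9 other bovine tissues, at autosomal cytosines read at least 8 times in all 10 tissues. The deposited cortex data held 142540 CG sites, and 51227 autosomal CG sites, matched by chromosome, position and strand, could be compared in all tissues (53007 with the other sequences of the assembly). The questions were at which sites cortex stood below or above every other tissue, and where such sites lay side by side. A run was taken as at least 4 consecutive compared sites, neighbours at most 200 bp apart, with cortex the lowest or the highest of the 10 tissues at each site, which gave 39 lower and 37 higher runs.

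Methylation was measured by reduced representation bisulfite sequencing (RRBS) in 1 library per tissue from the Hereford cow Dominette and its relatives. The frontal cortex, mammary parenchyma, abomasum and ileum came from juvenile females. Skeletal muscle (labelled near ceasarian), intercaruncular uterus, nucleated blood cells and lactating gland (labelled 90 d) came from adult females. The testis came from an adult male and the rumen from a male fetus of 180 d. In RRBS, *MspI* cuts the DNA at CCGG and short fragments are sequenced after bisulfite, to which only unmethylated cytosines give way, and the methylation level of a cytosine is the part of its reads in which it was kept. With 1 library per tissue, tissue, animal, sex, stage and library cannot be told apart, and every comparison below is one of libraries without a replicate check. A base difference between the animals at a CG would also change the level there, and was not tested.

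The median number of reads per compared site was 34 in cortex and 12 in abomasum, and the remaining 8 libraries had 32 to 50. At least 20 reads covered 89.7 % of the compared sites in cortex and 19.8 % in abomasum. A level from few reads moves in coarse steps, so that abomasum limits every statement that cortex lay beyond all 9 tissues. Intervals are Wilson intervals at 95 % and describe the error of counting reads alone, as duplicate reads made by PCR could not be recognised.

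In mammals the CG dinucleotide is the main target of DNA methylation, and the same mark is usually found on both strands of a CG. Dense clusters of CGs tend to be unmethylated and CGs elsewhere methylated, while a smaller group of regions differs between cell types and is thought to record lineage and gene use. The cortex is a mixture of neurons and glia, and brain is also known for methylation outside CG in neurons. The levels here are averages over all cells of a sample, in which a change in a share of the cells and a partial change in all of them cannot be told apart. No gene annotation of UMD3.1, the assembly of the deposited positions, was used here, so that runs are given by position and sequence and the cell types were not checked by marker genes.

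The sequences below belong to the 3 lower and 3 higher runs with the widest gap between cortex and the nearest other tissue, and to the fourth higher run, in which a single other tissue stood apart. They were assembled from the base contexts deposited with each cytosine, are given 5′ to 3′ on the forward strand of UMD3.1 with 2 bases beyond the outer sites, and show the CGs of the run in capitals. An n stands for a base that no deposited context covered. The chromosome 5 and 22 runs and the lower chromosome 25 run each held 2 CCGG sequences, one near each end.
Lower in cortex, chr9:95951395-95951436: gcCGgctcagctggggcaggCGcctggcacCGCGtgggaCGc
Lower in cortex, chr5:117826168-117826218: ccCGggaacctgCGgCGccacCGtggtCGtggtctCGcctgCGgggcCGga
Lower in cortex, chr25:789443-789492: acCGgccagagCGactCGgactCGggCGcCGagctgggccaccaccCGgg
Higher in cortex, chr10:81676718-81676758: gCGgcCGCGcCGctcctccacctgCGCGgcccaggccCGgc
Higher in cortex, chr22:39065331-39065379: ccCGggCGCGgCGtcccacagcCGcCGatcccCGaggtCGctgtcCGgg
Higher in cortex, chr25:39515538-39515584: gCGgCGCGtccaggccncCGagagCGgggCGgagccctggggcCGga
Higher in cortex, chr7:13419862-13419898: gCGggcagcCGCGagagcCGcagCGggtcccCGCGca

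Over all compared sites, the mean CG level of cortex was 27.0 %, against 28.4 % ± 2.09 (SD) in the 9 other tissues, with testis at the low end (24.1 %) and nucleated blood cells at the high end (31.8 %). Testis was the only tissue below cortex. The difference of -1.37 points was smaller than the SD among the other tissues (two-sided p = 0.5 by an exact permutation of the tissue set against the 9 others, where the smallest possible p is 0.1). As in the other tissues, most sites of cortex were either little or highly methylated, with 65.9 % of sites below a level of 20 %, 16.3 % between 20 % and 80 % and 17.8 % above 80 %.

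The deviation of cortex was described by the median level of the 9 other tissues at a site. At sites where that median lay between 20 % and 80 %, cortex was -6.26 points from it on average. The same deviation, computed for each other tissue in turn, averaged 0.214 ± 6.94 (SD, n = 9) and had its extremes in testis (-13.5 points) and nucleated blood cells (11.4 points) (exact permutation test, p = 0.4). Testis alone lay further down than cortex in this class. At sites above 80 % cortex deviated by -3.99 points (-2.79 ± 4.44 in the other tissues, exact permutation p = 0.5), and at sites below 20 % by 0.353 points (0.979 ± 0.904, exact permutation p = 0.5). None of the 3 deviations of cortex stood out from the spread of the other tissues.

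Across the compared sites, Pearson's r of the levels of cortex with those of another tissue was highest for uterus (0.965), rumen (0.963), skeletal muscle (0.962) and ileum (0.962), and lowest for nucleated blood cells (0.943) and testis (0.937). These are correlations over sites, which are not independent and share their sequence between the tissues. The mean absolute difference from cortex ran from 5.27 points for rumen to 7.61 points for nucleated blood cells.

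Site by site, the reads of cortex were compared with those of each other library by Fisher's exact test with Benjamini-Hochberg adjustment within a pair, and a site was called when the levels were 25 points or more apart at an adjusted p below 0.01. Against nucleated blood cells 2344 sites were called (4.58 % of the sites tested), with cortex lower at 1989 and higher at 355. Against testis 1940 were called (3.79 %) and the direction was the opposite, with 352 lower and 1588 higher. These were the pairs with most calls.

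Cortex was also called lower more often than higher against ileum (1075 sites or 2.10 %, 872 lower), lactating gland (1311 or 2.56 %, 704 lower), mammary parenchyma (929 or 1.81 %, 552 lower), uterus (667 or 1.30 %, 518 lower), skeletal muscle (558 or 1.09 %, 318 lower) and abomasum (320 or 0.625 %, 231 lower). Against rumen 544 sites were called (1.06 %), 258 lower and 286 higher. The fewest calls were made against abomasum, the library with the fewest reads. The median over the 9 pairs was 518 lower and 286 higher sites. The pairs share the cortex library, so that these counts are not independent of each other.

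**Figure D1:**
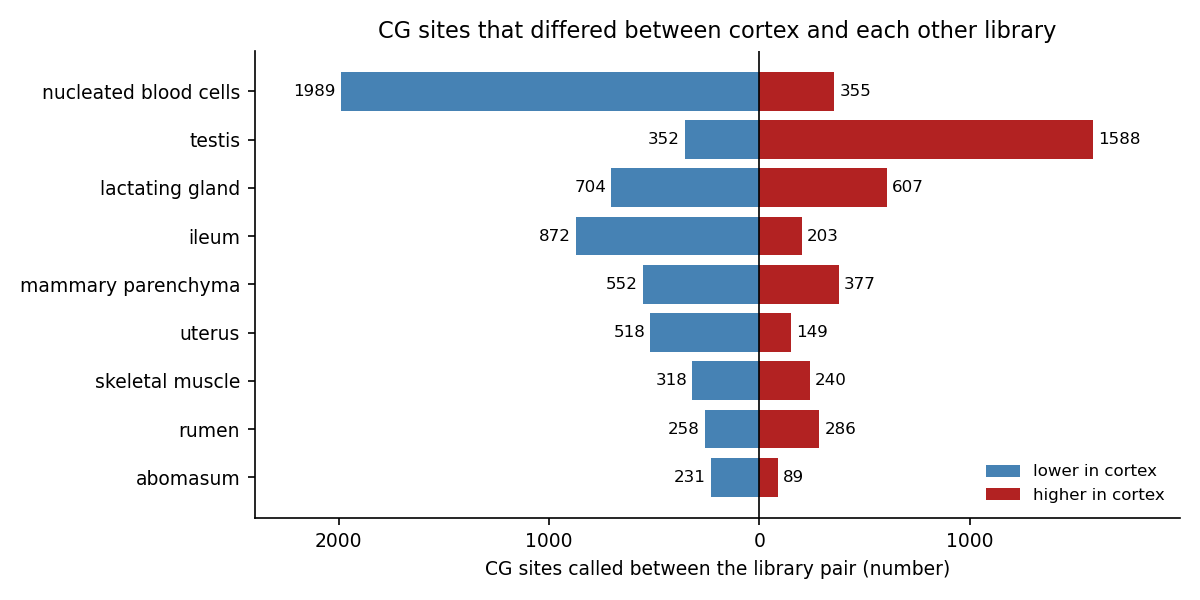
Number of CG sites called between cortex and each of the 9 other libraries (Fisher's exact test, adjusted p below 0.01, at least 25 points), with sites lower in cortex to the left and higher in cortex to the right. The longest bars are the 1989 lower sites against nucleated blood cells and the 1588 higher sites against testis, and the shortest pair is that with abomasum (231 and 89).

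Few sites were called against all 9 tissues. Cortex was called lower than every other tissue at 4 sites (0.00781 % of 51227) and higher at 10 sites (0.0195 %). Another 14 lower and 19 higher sites passed 8 of the 9 pairs, and the missing pair was that with abomasum at 5 and 15 of them. With abomasum left out, 9 lower and 25 higher sites were called. They include the 4 and 10 sites above by construction, since only the other 8 pairs had to be passed. By contrast, adjusting the largest of the 9 p-values per site left 2 lower and 3 higher, and thinning the reads of every tissue at random to the lowest number at the site left 0 and 0 (13 and 11 by Fisher's exact test at an unadjusted p below 0.05).

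The 14 called sites lay in 4 runs, on chromosomes 5, 25, 10 and 22. The lower site with the widest gap was chr5:117826209 on the forward strand, where 9 of 42 cortex reads were methylated (21.4 %, interval 11.7 to 35.9 %) and the other tissues had 86.1 to 100 %. In the same run, chr5:117826183 had 28.6 % (12 of 42 reads, interval 17.2 to 43.6 %) against 75.0 to 100 %, and chr5:117826203 had 33.3 % (14 of 42 reads, interval 21.01 to 48.4 %) against 79.2 to 100 %. On chromosome 25, the reverse-strand site chr25:789470 had 39.4 % (13 of 33 reads, interval 24.7 to 56.3 %) against 84.8 to 100 %. At none of these sites did the interval of cortex reach the lowest level of another tissue.

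The 5 called higher sites with the widest gaps were all on the reverse strand of the chromosome 10 run. At chr10:81676726 cortex had 73.0 % (27 of 37 reads, interval 57.0 to 84.6 %) and no other tissue more than 2.08 %. At chr10:81676724 it had 68.4 % (26 of 38 reads, interval 52.5 to 80.9 %), while all 9 other libraries were at 0. The least covered of those libraries had 10 reads there. An approximate upper limit, 3 divided by the reads and not a Wilson interval, is a level of 30 %. The other 5 called higher sites were among the 8 reverse-strand sites of the chromosome 22 run, where cortex had 59.6 to 64.9 % from 57 or 58 reads and the highest other tissue 16.9 to 22.03 %.

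Without a test on reads, cortex was strictly the lowest tissue at 2010 sites (3.92 %) and strictly the highest at 3048 (5.95 %). Most of these gaps were narrow, since the median distance to the nearest tissue was 4 points at the lowest and 2.07 points at the highest sites, and 56.8 % and 81.8 % of them lay within 5 points. At 48 sites cortex was at least 25 points below every other tissue (0.0937 %), and at 54 sites at least 25 points above (0.105 %).

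Large differences went with runs. Of the 48 and 54 sites with a gap of at least 25 points, 37 and 46 lay in a run, compared with 10.9 % of all lowest and 6.96 % of all highest sites. The opposite strand of the CG was among the compared sites for 23 lower and 23 higher of these run sites, and there too cortex was beyond all 9 tissues at each of them, as the definition of a run makes likely. Of the 11 lower and 8 higher sites outside runs, 4 and 3 had a compared opposite strand, and at none of these was cortex beyond all tissues. The widest of them, chosen after their values were seen, were chr5:26157068, where 1 of 32 cortex reads was methylated (3.12 %, interval 0.55 to 15.7 %) against 38.2 to 82.1 %, and chr29:51282163, where cortex had 86.4 % (19 of 22 reads, interval 66.7 to 95.3 %) against 5.56 to 50 %.

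The 39 lower runs held 220 sites on 18 chromosomes and the 37 higher runs 212 sites on 17 chromosomes. The runs fell into 69 loci when those within 10 kb were joined, 6 loci had more than 1 run, and none had runs of both directions. A run spanned 7 to 47 bp when lower and 4 to 45 bp when higher, so that its sites largely shared reads and are not independent measurements. The gap between the mean level of cortex and the nearest tissue exceeded 10 points in 23 lower and 19 higher runs, 20 points in 9 and 9, and 25 points in 3 and 6. Runs were chosen by these values, which are therefore given without a test.

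The levels of the other tissues differed between the 2 directions, as the choice of runs by these values makes likely. In the lower runs the median level was 40.1 % in cortex and 74.0 % for the median of the 9 other tissues, and in 18 of 39 runs the median of the other tissues was above 80 %. In the higher runs these medians were 62.8 % in cortex and 9.47 % in the others, and in 19 of 37 runs the median of the other tissues was below 20 %. Cortex itself was between 20 % and 80 % in 29 lower and 17 higher runs. The nearest tissue was most often testis (10 runs) or lactating gland (8 runs) for lower runs, and nucleated blood cells (7 runs) for higher runs.

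**Figure D2:**
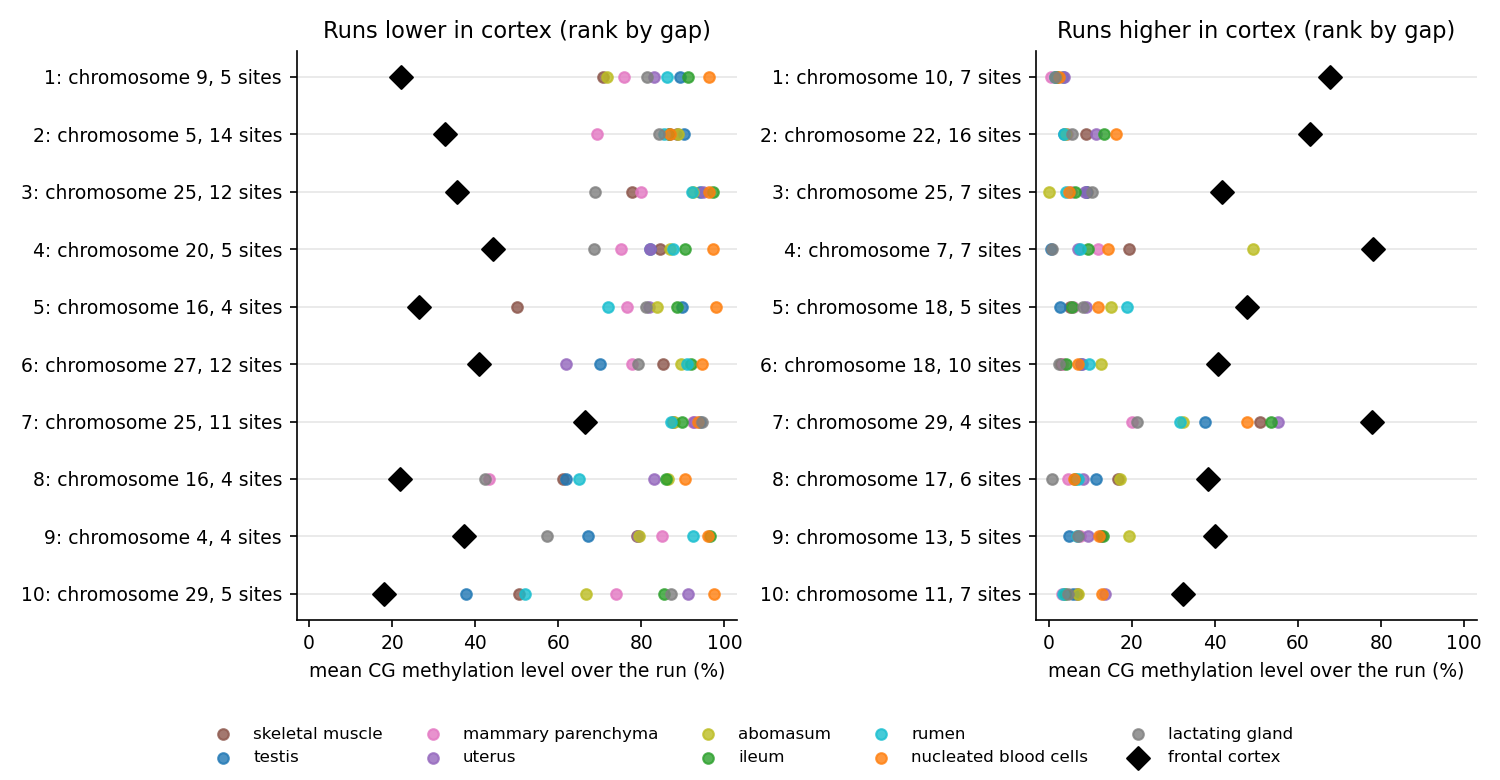
Mean CG level (%) of each of the 10 tissues over the 10 lower (left) and 10 higher (right) runs with the widest gap, ranked by that gap, with cortex as black diamonds and the other tissues as coloured points. Cortex lies from 18.1 to 66.4 % in the lower runs, left of every other tissue, and from 32.3 to 78.1 % in the higher runs, right of every other tissue, where abomasum comes nearest in the fourth run (49.1 %).

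The lower run with the widest gap lay on chromosome 9 and held 5 forward-strand sites. Cortex had a mean level of 22.2 % over the run, with single sites from 15.0 to 30.0 % and 19 or 20 reads each. The other tissues had 70.7 % in skeletal muscle as the lowest, a median of 83.1 % and 96.2 % in nucleated blood cells as the highest. Cortex thus lay 48.5 points below the nearest tissue, and no other tissue was near it.

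The chromosome 5 run was the longest lower run, with 14 sites, 7 on each strand. The mean level was 32.7 % in cortex, and 69.2 % in mammary parenchyma, 86.7 % in the median and 90.2 % in testis for the other tissues. Mammary parenchyma was the only other tissue clearly below the rest, and the lactating gland, the same organ in an adult, had 84.2 %. Within cortex the mean was 24.8 % on the forward and 40.6 % on the reverse strand, while the medians of the other tissues were 86.8 % and 85.7 %. The sites of a strand largely shared the same reads, 35 to 43 per site in cortex, and this strand difference was not tested.

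On chromosome 25 the lower run had 12 sites, 6 on each strand, near the start of the chromosome. Cortex had 35.7 % (33.3 % forward, 38.1 % reverse), against 68.8 % in lactating gland, a median of 92.5 % and 97.3 % in ileum. Lactating gland, skeletal muscle (77.8 %) and mammary parenchyma (79.8 %) formed a lower group among the other tissues, and the other 6 were at 92.2 % or above. The gap to the nearest tissue was 33.1 points.

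The remaining lower runs among the 10 widest had gaps of 19.6 to 24.4 points. They lay at chr20:71832703-71832726 (44.3 % in cortex), chr16:81423873-81423913 (26.6 %), chr27:32633803-32633844 (40.8 %), chr25:41770669-41770697 (66.4 %), chr16:47746691-47746720 (21.8 %), chr4:117498726-117498760 (37.3 %) and chr29:46163225-46163254 (18.1 %). They differed in how close the other tissues lay together. In the second chromosome 25 run the 9 tissues were at 87.2 to 94.6 %, whereas in the chromosome 29 run they were spread widely, with testis at 37.8 % and nucleated blood cells at 97.6 %. Without testis the gap of that chromosome 29 run was 32.3 points in place of 19.6.

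The higher run with the widest gap, on chromosome 10, was almost unmethylated elsewhere. Cortex had 67.7 % over its 7 reverse-strand sites, from 54.1 to 73.0 % per site with 37 or 38 reads, while the 9 other tissues had 0.408 % in mammary parenchyma, 1.81 % in the median and 3.53 % in uterus. The gap was 64.1 points, the widest of all runs, and the range of the other tissues was narrow.

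On chromosome 22, 16 sites, 8 on each strand, made the longest higher run. Cortex had 62.8 %, with 64.1 % on the forward and 61.4 % on the reverse strand, and single sites from 55.0 to 70 %. The other tissues had 3.56 % in rumen, a median of 5.54 % and 16.1 % in nucleated blood cells. Both strands therefore gave nearly the same level in cortex, and the median of the others was 6.45 % and 5.08 %.

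The third higher run, on chromosome 25, had 7 reverse-strand sites with 41.7 % in cortex, against 0 % in abomasum, a median of 6.18 % and 10.4 % in lactating gland. The fourth, on chromosome 7, had 7 reverse-strand sites at 78.1 % in cortex, from only 15 reads per site. There the other tissues had 0.397 % in testis, a median of 9.32 % and 49.1 % in abomasum, while the next tissue was skeletal muscle with 19.2 %. Abomasum alone set the gap of 28.9 points, which was 58.9 points without it.

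**Figure D3:**
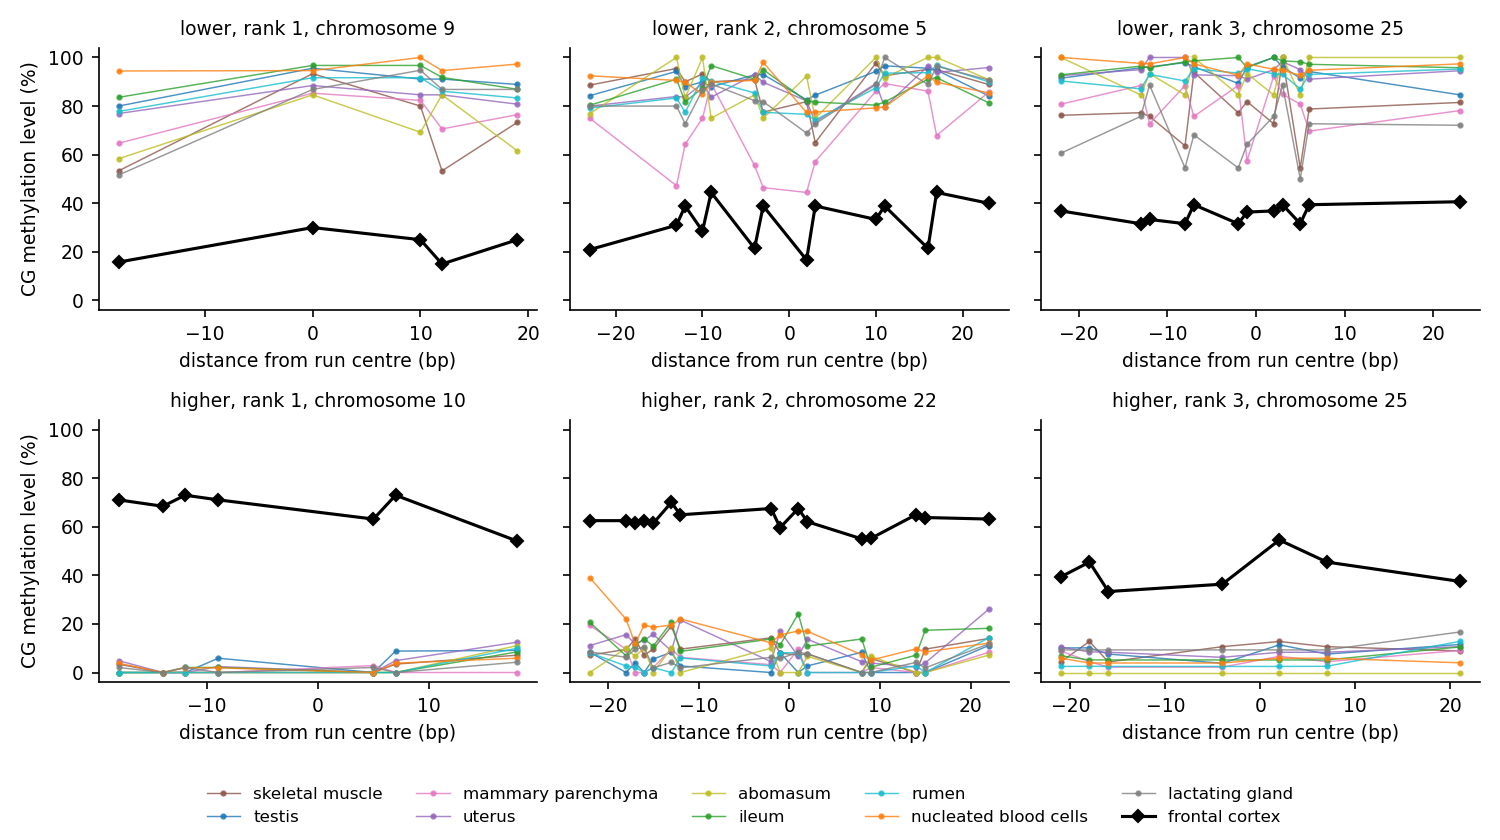
CG methylation level (%) of each compared site against its distance in bp from the centre of the run, for the 3 lower (top) and 3 higher (bottom) runs with the widest gap, with cortex in black and the 9 other tissues in colour. Cortex stays between 15.0 and 44.4 % along the lower runs and between 33.3 and 73.0 % along the higher runs, and its saw-tooth line in the chromosome 5 run follows the strands (24.8 % forward, 40.6 % reverse).

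Of the other 6 higher runs among the 10 widest, 2 lay on chromosome 18 within 10 kb of each other, at chr18:62514962-62514992 (40.8 % in cortex) and chr18:62521453-62521474 (47.6 %). In the first, the other tissues reached 12.5 % at most, in abomasum, and in the second 18.8 %, in rumen. The others were at chr29:51070415-51070452 (77.9 %), chr17:71630403-71630442 (38.4 %), chr13:41104334-41104369 (40.0 %) and chr11:11508359-11508377 (32.3 %). In the chromosome 29 run the other tissues were themselves partly methylated, from 20 % in mammary parenchyma to 55.2 % in uterus. All 10 higher runs had cortex between 20 % and 80 %, as had 9 of the 10 lower runs.

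CG sites near a run, on the opposite strand or further along the chromosome, were then examined. These were CG sites within 1 kb that cortex and 5 to 8 of the other tissues covered, so that they were not among the compared sites, and that lay on the strand the run did not use or more than 300 bp away. Near 15 lower runs 115 such sites were found, and cortex was below every tissue with data at 49 of them (42.6 %), against 5.62 % of the 71645 sites with the same coverage on all autosomes. Near 20 higher runs there were 118, and cortex was above every tissue with data at 70 (59.3 %), against 6.79 %. The autosomal shares were not matched for level. Among the compared sites, the median of the other tissues was below 20 % at 65.6 % of all sites but at 16.9 % of the lowest. The mean difference from the median of the others had the direction of the run in 15 of 15 and in 20 of 20 runs, although it was within 5 points in some of them. How often this holds at other loci is not given here. Compared sites in the flanks were fewer. Cortex was below every tissue at 15 of 110 (13.6 %) near 5 lower runs, against 3.92 % of all compared sites. It was above every tissue at 10 of 25 (40 %) near 3 higher runs, against 5.95 %. Opposite strands of a CG usually carry the same mark, so that these sites are other reads of the same libraries and not replicates. Fragments were read from both ends. Sites more than 300 bp away on a strand of the run may therefore come from the same fragments as the run.

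**Figure D4:**
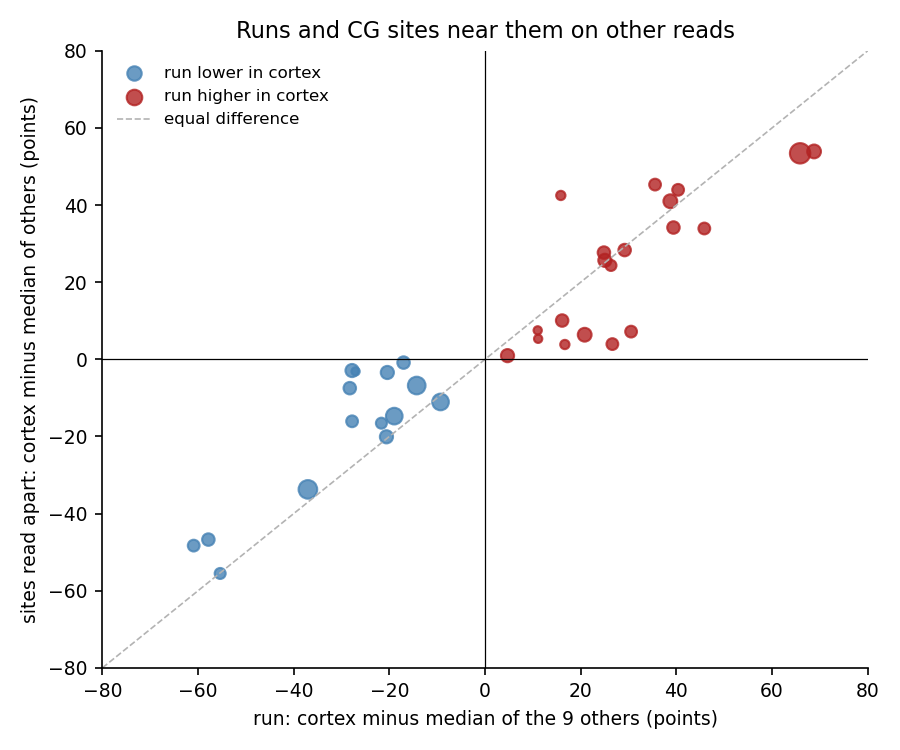
Difference of cortex from the median of the other tissues (points) over a run (horizontal) and over nearby sites (vertical), for 15 lower runs (blue) and 20 higher runs (red). Nearby sites lie on the strand the run did not use or more than 300 bp away. Larger points stand for more sites, and the dashed line marks equal differences. All points lie on the side of 0 of their own run, with the chromosome 10 and chromosome 7 runs furthest to the upper right (53.4 and 53.9 points at the nearby sites).

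For the chromosome 10 run, 21 such sites were found and cortex was above all tissues with data at 20. More than 300 bp away, between chr10:81676371 and chr10:81676417, 14 sites, 7 on each strand, had 48.1 to 82.1 % in cortex and at most 25 % in any other tissue. Fragments were read from both ends, so that these sites may lie at the other end of the same fragments. Whether they do was not tested. On the forward strand of the run itself, from chr10:81676716 to chr10:81676744, 7 sites had 17.1 to 34.4 % in cortex and at most 20.6 % elsewhere. The 6 CGs of the run read on both strands thus had a mean of 69.9 % on the reverse and 28.6 % on the forward strand in cortex, 36.7 to 46.1 points apart at each. Cortex stood above the other tissues on both strands at these CGs, but not by the same amount.

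The same check at the other runs gave like levels in some and not in others. In the chromosome 9 run, 5 reverse-strand sites had 29.6 to 46.2 % in cortex, and at each it was below the 8 other tissues with data, which were at 63.6 % or above. In the chromosome 7 run, 8 forward-strand sites had 45.0 to 75.0 % in cortex and at most 30.4 % in the 8 others with data. The tissue without data is not identified here. These sites therefore cannot show whether the gap to abomasum, the nearest tissue in the run (49.1 %), held on this strand. In the chromosome 13 run, by contrast, the 4 CGs read on both strands had a mean of 39.7 % on the strand of the run and 12.2 % on the other, where other tissues reached 20 %. At the higher chromosome 29 run, cortex was high on the opposite strand as well, from 66.7 to 94.7 % at 4 sites, but another tissue was higher at 3 of them and reached 80.8 %. Cortex was beyond all tissues with data at 3 of 4 sites near the run at chr16:81423873-81423913, 3 of 5 near the higher chromosome 25 run and 5 of 6 near that at chr18:62521453-62521474.

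Cortex was compared with the other tissues by counting, for each tissue in turn, the runs in which it was the lowest or the highest of all. With 39 lower runs cortex lay among the other tissues, which had 665 (testis) down to 7 (uterus), and likewise with 37 higher runs, between 414 (nucleated blood cells) and 8 (rumen). The number called in all 9 pairs was also within the range of the other tissues, which had 0 to 328 lower and 0 to 42 higher sites. By these counts cortex was within the range of the other tissues.

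The count of lower runs depended on testis, the tissue with the lowest mean level. With testis left out, cortex was strictly the lowest of 9 tissues at 4981 sites (9.72 %), while the other 8 tissues were so at 1.80 to 7.05 % of the sites. The number of lower runs was then 232 in place of 39, while that of the other 8 tissues was between 8 and 94. Cortex was strictly the highest at 3259 sites (6.36 %), and its higher runs were 38 in place of 37. Nucleated blood cells, the tissue with most higher runs, were not left out in the same way. The changes of the lower and of the higher counts can therefore not be set against each other. Without replicates these counts have no test.

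Of the 232 runs, 193 held none of the sites of the 39 runs, and testis had a lower mean level than cortex in 154. Cortex was intermediate in most of them, with a median level of 61.9 %, against 79.5 % for the median of the 8 other tissues and 55.3 % for testis, and cortex was between 20 % and 80 % in 212. The gap to the nearest of the 8 tissues was 10.7 points in the median and exceeded 20 points in 16. Among the 193, the widest gap was in the run at chr9:65873155-65873165, where cortex had 40.9 %, the 8 tissues 64.3 to 80.3 % and testis 46.2 %. At chr20:14787188-14787284 cortex had 50.7 %, the 8 tissues 73.9 to 81.8 % and testis 42.6 %, and at chr10:77828030-77828109 cortex had 58.8 % over 7 sites, the 8 tissues 80.2 to 86.8 % and testis 51.1 %. At chr19:61922454-61922516 cortex had 51.6 %, the 8 tissues 74.1 to 91.3 % and testis 64.6 %, and at chr8:36148301-36148328 cortex had 49.3 %, the 8 tissues 69.2 to 83.5 % and testis 62.9 %. These 5 runs, those with the widest gaps, were chosen after their values were seen. Testis was below the other 8 tissues in each, but below cortex in only the chromosome 20 and 10 runs.

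**Figure D5:**
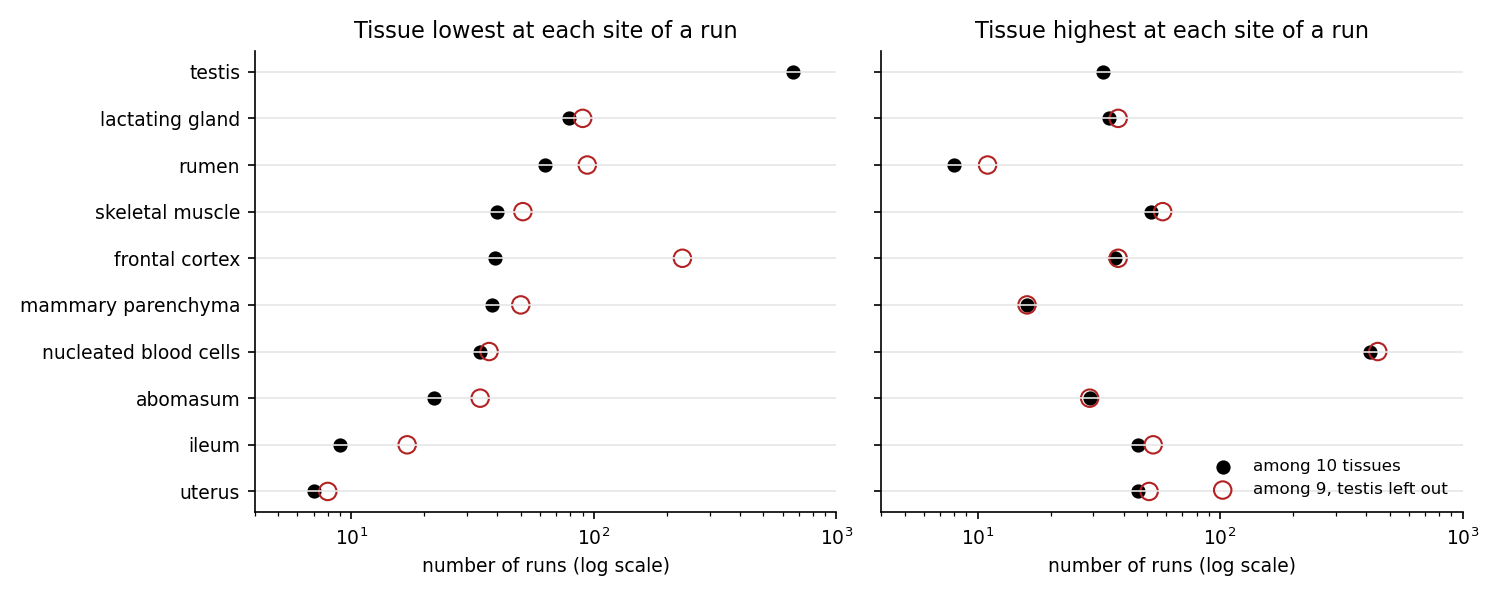
Number of runs (log scale) in which each tissue was the lowest (left) or the highest (right) at every site, among all 10 tissues (filled points) and among 9 with testis left out (open circles). Leaving out testis moves cortex from 39 to 232 lower runs, past the other 8 tissues (8 to 94), and leaves its higher runs at 38.

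The sites also differed in sequence and position, which the choice of runs did not use directly. CCGG, the *MspI* site, which like GCGC reads the same on both strands, surrounded 21.9 % of the lowest sites, 13.5 % of the highest and 12.9 % of all compared sites, but only 11.4 % of the sites in lower runs and 8.02 % in higher runs. GCGC surrounded 5.52 % of the lowest and 19.3 % of the highest sites against 17.7 % of all, with 6.82 % and 23.1 % in lower and higher runs. The median number of covered CGs within 50 bp was 6 at the lowest sites and 9 at the highest and at all sites, and 8 and 9 in lower and higher runs. The last 2 Mb of covered sequence of a chromosome held 22.7 % of the sites in lower runs and 22.6 % of those in higher runs (9 of 39 and 10 of 37 runs), against 12.04 % of all compared sites. All lowest and all highest sites had 12.3 % and 14.2 % there. The sites at least 25 points below or above every tissue had 12.5 % and 1.85 %. Most sites of this last group lay in runs and shared reads, so that their shares cannot show whether the widest runs had the excess. Since levels and CG density are related in all tissues, these shares are descriptions and were not tested.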

How the data were processed

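DNA methylation was measured by RRBS in 10 bovine tissues, 1 library each, grouped by the tissue in the labels, with sex and stage from the study's sample table. After trimming, the authors mapped reads to UMD3.1 by a pipeline derived from SOAPaligner 2.21 and retained cytosines covered 8 times or more. The number of reads of a cytosine was deposited as a count and its methylation level as a fraction of those reads. The further deposited columns of methylated reads, p-value and FDR were not used. Methylated reads were taken as level times reads, which was a whole number within 2.91e-11.

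Fisher's exact test was two-sided, at an adjusted p below 0.01 and 25 points, and calls needed all 9 pairs. It compares the reads of libraries. Computation used Python 3.11.15, NumPy 2.4.6, SciPy 1.17.1, pandas 2.3.3 and Numba 0.67.0 with a random seed of 1 for thinning reads, and the calling was tested on simulated data.

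The text names the 10 runs per direction with the widest gap, the longest run and the 5 called sites per direction with the widest gap. The runs, rules and contrasts were chosen with earlier results of these data known. Alternatives were read minimums of 10 and 20, pooled strands, weighting by reads, thinning, leaving out abomasum or testis, a 40-point difference, the largest of the 9 p-values, no test, and other definitions of a run. Genes, CG islands and sex chromosomes were not analysed here.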

Additional observations from a re-analysis of the deposited data

How the results depend on the processing

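No paired analysis was possible because each tissue had 1 library and the labels give no replicate numbers. Of 50 counts recomputed under the alternatives, 25 stayed within 1.5 times the reported count and 25 moved further. The mean difference kept its sign in all 6 of its alternatives, though not its size. The sites called lower than all 9 tissues (4) became 0 at a minimum of 20 reads and 0 with reads thinned to the lowest tissue, 9 without abomasum, 2 by the largest of the 9 p-values and 48 with no test. The sites called higher (10) became 0, 0, 25, 3 and 54 under the same settings. At 20 reads 7147 sites were left, of which Fisher's exact test gave 2 lower and 0 higher at an unadjusted p below 0.05 in all 9 pairs and 25 points. None of the 14 called sites had 20 reads in every tissue, so that minimum removed them all and none was tested again. Thinning left a median of 12 reads and gave 13 lower and 11 higher at the unadjusted p, where the reported reads gave 33 and 34. The median count over pairs fell from 518 lower sites to 259 at 20 reads, 240 at 40 points and 82 with thinned reads, and from 286 higher sites to 25 at 20 reads and 16 with thinned reads.

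The 39 lower runs became 2 at 20 reads, 14 with thinned reads, 12 at 6 or more sites, 18 with at least 5 points at each site and 232 without testis. The 37 higher runs became 22 at 10 reads, 1 at 20 reads, 5 with thinned reads, 14 at 6 or more sites and 12 with at least 5 points. The mean difference of -1.37 points was -2.27 weighted by reads, and -4.99 at the sites with 20 reads (47.9 % in cortex, 52.9 % ± 5.40 in the others, exact permutation p = 0.3). Both stricter minimums and thinning keep fewer sites or reads, and abomasum was the limiting library. The gaps of the 20 named runs did not change sign in any of the 5 settings in which they were recomputed. Leaving out abomasum, testis or the sites with fewer than 10 reads could not have reversed a gap. At each site of a run cortex was beyond every tissue by definition. The smallest gap under thinning was 7.06 points, in the chromosome 11 run (18.9 as reported), and the higher chromosome 29 run had 13.9 points in place of 22.6. At 10 reads 18 of the 20 had a value, from 16.6 to 67.5 points.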

Other observations

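Methylation outside CG was low in cortex and did not set it apart. At 38838 CHG sites (H is A, C or T) with at least 8 reads in all 10 tissues, the mean level was 1.06 % in cortex and 1.09 % ± 0.0709 (SD) in the 9 others (exact permutation p = 0.8). At 56500 CHH sites it was 1.58 % and 1.59 % ± 0.0683 (exact permutation p = 1.0). Fisher's exact test called 0 such sites in cortex against all 9 tissues in either direction, and 0 at an unadjusted p below 0.05. Incomplete bisulfite conversion also leaves reads of this kind, and its part in these levels was not tested.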
